A study of Rattus norvegicus with 11 samples.

Results

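The matrix metalloproteinase genes (Mmp), the ADAMTS and ADAMTS-like genes (Adamts, Adamtsl), the 4 tissue inhibitors of metalloproteinases (Timp1 to Timp4) and A2m were followed across the 4 groups of a rat suture defect study. They were taken from the count table by symbol, which gave 53 of 23781 genes, and 48 of the 53 passed the filter on low counts that left 18049 genes for testing. The other 5, Adamts18, Mmp1, Mmp1b, Mmp20 and Mmp21, had at most 43 counts each over all libraries and are not described further. The rule reads gene symbols alone.

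The libraries are bulk RNA-seq of Cd45- cells, the fraction left after sorting away cells that carry the leukocyte surface protein Cd45, from tissue that had grown into composite defects of the coronal suture and adjoining calvarial bone. The animals were male Sprague Dawley rats, 4 months old according to the labels, and tissue was collected 6 weeks after surgery, digested with collagenase, fixed, permeabilised and sorted. NC was the defect left without a scaffold (3 libraries), GelMA a gelatin methacryloyl hydrogel (3), CTS a porous chitosan scaffold (3) and PLA an electrospun polylactic acid membrane (2). The labels name no transgene or mutant allele in any group, and they do not say whether a library is 1 animal or a pool, so p-values measure only the spread between these libraries, which may be technical. Library totals ran from 22509898 to 31290849 counts. Levels are given as FPKM (fragments per kilobase of gene, scaled to the library total), the scale on which genes of different length can be compared, and differences as log2 fold changes ± SE from 1 edgeR model of all 11 libraries. A member counted as called when its adjusted p was under 0.05 and its log2 fold change lay above 1 or below -1. Called, lost and passed refer to this model unless another fit is named. The 2-group fit is edgeR on the libraries of the 2 groups compared alone. Values listed for a group follow replicate order. FPKM carry no composition factor, whereas the model scales by trimmed mean (TMM) factors. These were 0.780 and 0.772 in PLA, 0.804 in NC replicate 2 and 1.05 to 1.14 in the other libraries. Beside the fold changes, FPKM of PLA and NC replicate 2 therefore read low. Statements that libraries lie above or below others refer to FPKM.

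Matrix metalloproteinases are zinc proteases that are made as inactive precursors, and together they cleave collagens, gelatin, proteoglycans and elastin. Neutrophils store Mmp8, Mmp9 and Mmp25 and release them without new transcription, macrophages make the elastase Mmp12, and fibroblasts, osteoblasts and chondrocytes make the collagenase Mmp13, the stromelysins, and Mmp2 with its membrane-bound activator Mmp14. ADAMTS proteases trim procollagens and cleave large proteoglycans, whereas the Timp proteins block metalloproteinases and A2m, a large secreted protein, traps proteases of several classes.

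The cell make-up of the libraries moved with several results below. Ptprc, which encodes Cd45, was present in every library, from 52.7 to 300.3 FPKM, so the sorted fraction held leukocyte RNA. The summed level of 10 neutrophil markers ran from 8439.8 to 83984 FPKM in NC, from 6103 to 16692 in GelMA, from 35534 to 60375 in CTS and from 7389 to 7783 in PLA, with Ltf under 1 FPKM throughout. NC replicate 2 stood apart from NC replicates 1 and 3: its 10 mesenchymal markers summed to 42145 FPKM against 2467 and 7629, and its neutrophil markers to 8439.8 FPKM against 83984 and 60119.9. Where a call of a member named with values changed without it, both values are given. In bulk samples, fewer cells of a type and less RNA per cell cannot be told apart.

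Between PLA and NC, 4 of the 48 members tested were higher in PLA (A2m, Adamts6, Mmp12 and Mmp13), against 8.32% of all genes tested, and 3 were lower (Adamtsl3, Mmp8 and Timp4), against 4.01% of all genes. Scaled by library size alone, 3 were higher and 4 lower. The share of members higher, 8.33%, was near that background, and so the count says nothing particular about the members. Without NC replicate 2 the counts were 10 higher and 5 lower, beside 11.4% and 7.58% of all genes, without NC replicate 3, GelMA replicate 2 or PLA replicate 1 there were 2 higher, and the 3 lower calls fell to 0 without PLA replicate 1 and to 1 without PLA replicate 2. Leaving out 1 PLA library leaves a single one, which is then assumed to vary like the other groups.

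Between PLA and CTS, 6 members were higher in PLA (A2m, Adamts6, Adamts7, Adamts9, Mmp13 and Timp1; 12.5% of members against 6.42% of all genes) and 1, Mmp8, was lower (3.53% of all genes). Scaled by library size alone, 3 were higher and 2 lower. Between GelMA and NC, 2 were higher in GelMA (A2m and Mmp13, against 5.03% of all genes) and 7 were lower (Adamts9, Adamtsl2, Adamtsl3, Mmp16, Mmp8, Mmp9 and Timp4; 14.6% of members against 3.21% of all genes), and by library size alone 2 and 4. Leaving out 1 library, the 6 became 1 (without CTS replicate 1) to 9 (without NC replicate 2, beside 8.88% of all genes). The 2 became 1 (without GelMA replicate 2 or 3) to 8 (without NC replicate 2, beside 7.26% of all genes). The 7 became 0 (without GelMA replicate 3) to 11 (without NC replicate 1). The lower calls were 4 or fewer when any GelMA library, CTS replicate 1 or NC replicate 3 was dropped. Shares of all genes are not given here for the other leave-one-out fits.

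No member was called between PLA and GelMA in the fit of all 4 groups (background 4.61% higher and 1.47% lower), where 8 members had an unadjusted p under 0.05 and DESeq2 called 4 higher and 0 lower, and the 2-group fit called 8 higher and 1 lower. CTS gave 0 calls against NC in the fit of all 4 groups (background 0.155% and 0.0222%), with 9 members at an unadjusted p under 0.05 and 4 called lower by DESeq2. CTS against GelMA likewise gave 0 calls (background 0.416% and 1.32%), with 9 members at an unadjusted p under 0.05, while DESeq2 called 2 higher and 2 lower and the 2-group fit called 5 higher and 6 lower. Without NC replicate 2, PLA against GelMA had 6 members higher, beside 7.2% of all genes. CTS against GelMA then had 3 higher and 4 lower, beside 3.75% and 3.38% of all genes. Shares of all genes are not given here for DESeq2 and the 2-group fit, so those counts stand without a background. The comparisons share libraries, so their values are set side by side below and not combined.

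**Figure D1:**
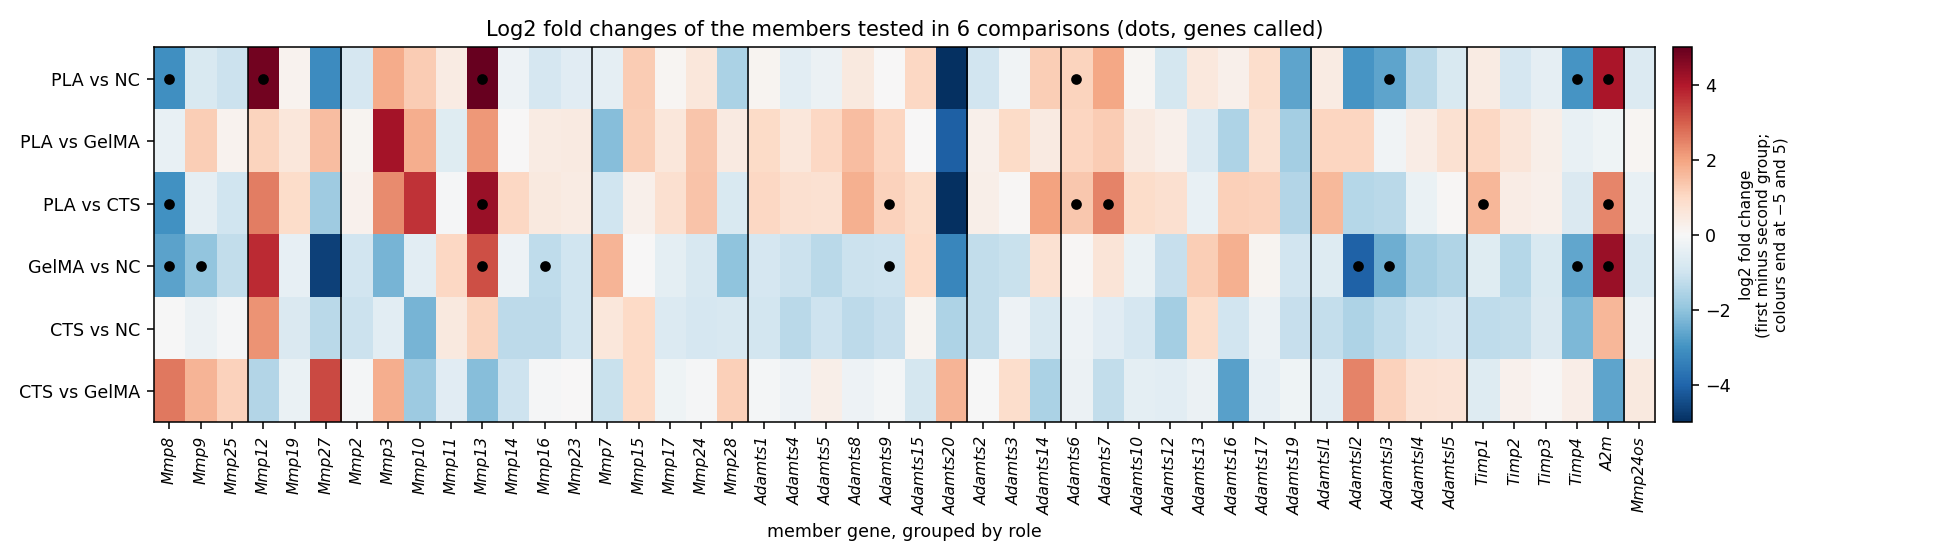
Heat map of the log2 fold change of each of the 48 members tested (columns, grouped by role) in 6 comparisons (rows); red is higher in the group named first, blue lower, and a black dot marks a gene called. Dots for Mmp13 and A2m stand in the PLA against NC, PLA against CTS and GelMA against NC rows in red, and those for Mmp8 in the same rows in blue.

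Mmp8, Mmp12, Mmp13 and Mmp3 lie in 1 cluster on rat chromosome 8, where RefSeq lists 10 protein-coding Mmp genes in the order Mmp13, Mmp12, Mmp1b, Mmp3, Mmp1, Mmp10, Mmp8, Mmp27, Mmp20 and Mmp7. These neighbours differed in opposite directions: against NC, PLA was higher in Mmp13 and Mmp12 and lower in Mmp8. Their promoter windows, 250 bases before to 50 after an annotated start, are printed 5′ to 3′ from RefSeq (build GRCr8, which is not the build of the counts) because they differ in 1 motif. Capitals mark the AP-1 letters TGAGTCA, or TGACTCA on the other strand. The windows are Mmp13 at chr8:12782579-12782878, plus strand, Mmp12 at chr8:12866402-12866701, plus strand, Mmp3 at chr8:12925031-12925330, plus strand and Mmp8 at chr8:13008640-13008939, plus strand.
Mmp13: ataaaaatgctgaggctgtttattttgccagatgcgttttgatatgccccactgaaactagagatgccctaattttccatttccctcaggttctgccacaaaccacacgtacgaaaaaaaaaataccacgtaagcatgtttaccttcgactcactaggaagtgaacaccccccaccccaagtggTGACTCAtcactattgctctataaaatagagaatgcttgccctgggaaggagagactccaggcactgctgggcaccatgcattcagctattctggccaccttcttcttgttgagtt
Mmp12: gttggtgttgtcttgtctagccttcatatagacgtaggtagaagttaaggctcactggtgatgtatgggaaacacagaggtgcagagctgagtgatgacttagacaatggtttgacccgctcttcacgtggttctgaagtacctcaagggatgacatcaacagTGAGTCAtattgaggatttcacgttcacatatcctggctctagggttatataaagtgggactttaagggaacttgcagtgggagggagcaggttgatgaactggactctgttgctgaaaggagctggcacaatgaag
Mmp3: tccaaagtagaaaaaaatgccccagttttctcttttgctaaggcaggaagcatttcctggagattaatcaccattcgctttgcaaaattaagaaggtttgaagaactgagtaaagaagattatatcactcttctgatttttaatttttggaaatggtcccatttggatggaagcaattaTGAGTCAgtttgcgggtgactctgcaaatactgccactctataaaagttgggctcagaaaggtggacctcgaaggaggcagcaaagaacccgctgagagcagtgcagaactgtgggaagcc
Mmp8: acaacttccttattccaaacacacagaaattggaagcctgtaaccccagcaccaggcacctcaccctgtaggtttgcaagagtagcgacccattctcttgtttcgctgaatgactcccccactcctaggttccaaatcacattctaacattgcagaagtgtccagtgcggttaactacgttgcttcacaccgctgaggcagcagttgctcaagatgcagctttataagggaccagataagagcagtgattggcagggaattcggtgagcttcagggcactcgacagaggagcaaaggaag
The AP-1 letters began at position -66 relative to the start in Mmp13, -87 in Mmp12 and -71 in Mmp3, and were not in the Mmp8 window. Of the 40 members with a window, 6 (15%) held the motif, all of them in the cluster (Mmp1, Mmp10, Mmp12, Mmp13, Mmp3 and Mmp7), against 5.04% of 27457 genes. All 4 printed windows held the TATA letters TATAAA or, on the other strand, TTTATA, as did 14 of the 40 members (35%) and 15.3% of all genes. The motifs share no bases in these windows, and a match describes the sequence and not the use of a site. Of the other genes with the AP-1 letters, Mmp3, Mmp10 and Mmp7 were not called in PLA against NC (log2 fold changes 1.84, 1.29 and -0.43). Mmp1 did not pass the filter, and a link between motif and level was not tested.

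The neutrophil collagenase Mmp8 was on average the most abundant member in NC and CTS and was low in PLA and GelMA. It stood at 2306, 283 and 1738 FPKM in NC, 359.8, 251 and 116 in GelMA, 1725, 1609 and 1051 in CTS and 116 and 139 in PLA. Both PLA libraries and GelMA replicates 2 and 3 lay below NC replicate 2, the lowest NC library, and every CTS library lay above every GelMA and PLA library. Relative to NC, Mmp8 was 8.41-fold lower in PLA (log2 fold change -3.07 ± 0.73 (adjusted p = 0.019)) and 6.45-fold lower in GelMA (-2.69 ± 0.61 (adjusted p = 0.022)). It was 8.21-fold lower in PLA than in CTS (-3.04 ± 0.73 (adjusted p = 0.0223)), whereas CTS and NC differed by -0.04 ± 0.57 (adjusted p = 0.988). The value for CTS against GelMA was 2.65 ± 0.61 (adjusted p = 0.0562), which passed without NC replicate 2 (adjusted p = 0.00384) or NC replicate 1 (0.0356). The fall in PLA against NC was not called without PLA replicate 1 or 2 (adjusted p = 0.142 and 0.12), nor that against CTS without PLA replicate 1 or 2 (0.163 and 0.138) or CTS replicate 1 or 2 (0.057 and 0.0532). The fall in GelMA was not called without NC replicate 3 (0.0536) or GelMA replicate 2 or 3 (0.0826 and 0.0827). In the 2-group fit, neither fall against NC was called (adjusted p = 0.14 in PLA and 0.104 in GelMA), whereas CTS against GelMA was (0.00848), as it was by DESeq2 (0.000215).

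Mmp9, the gelatinase of neutrophil granules that macrophages and osteoclasts also make, followed a different order. Its level was 509, 63.2 and 371 FPKM in NC, 102, 86.8 and 70.5 in GelMA, 295, 304 and 201 in CTS and 140.3 and 136 in PLA. GelMA lay below PLA in every library, and both lay below CTS, while NC replicate 2 was the lowest of all. Mmp9 was lower in GelMA than in NC (-1.98 ± 0.51 (adjusted p = 0.0362)). PLA differed from NC by -0.76 ± 0.56 (adjusted p = 0.402) and from GelMA by 1.22 ± 0.54 (adjusted p = 0.194), neither of which passed. Without NC replicate 2, Mmp9 was called lower in PLA than in NC (log2 fold change -1.22, adjusted p = 0.00299), higher in PLA than in GelMA (1.22, 0.00206) and higher in CTS than in GelMA (1.69, 0.000818). The fall in GelMA was lost without any 1 of 8 libraries (NC replicate 1 or 3, any GelMA replicate, CTS replicate 1, PLA replicate 1 or 2), with adjusted p up to 0.129, and was also lost with scaling by library size alone (0.0533) and in the 2-group fit (0.136). The 2-group fit called Mmp9 higher in PLA than in GelMA (0.000215) and in CTS than in GelMA (0.00321, and 0.0146 by DESeq2). Mmp25, a leukocyte metalloproteinase held at the cell surface, stood at 27.4, 3.26 and 21.2 FPKM in NC, 8.0, 9.01 and 6.76 in GelMA, 16.9, 17.0 and 17.3 in CTS and 7.01 and 5.28 in PLA. It was not called in any comparison, and without NC replicate 2 it was lower in PLA (-1.53, adjusted p = 0.000227) and in GelMA (-1.70, 0.000187) than in NC, and higher in CTS than in GelMA (1.16, 0.00153). The 2-group fit called Mmp25 lower in PLA than in CTS (0.00364) and higher in CTS than in GelMA (0.00273).

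The level of Mmp8 relative to Mmp9 within a library separated the groups although the levels themselves varied widely. The ratio of FPKM was 4.53, 4.48 and 4.69 in NC, 3.53, 2.9 and 1.65 in GelMA, 5.85, 5.3 and 5.23 in CTS and 0.825 and 1.03 in PLA. NC kept a ratio near its mean of 4.57 ± 0.109 (SD, n = 3) in all 3 libraries, NC replicate 2 included. The PLA ratio was the lowest and did not overlap with any other group. This ratio was chosen after the values were seen, and so carries no test. Neutrophil markers moved beside it in opposite directions. Mpo, Camp, Ngp and Padi4 were called lower in PLA than in NC, whereas Csf3r, the receptor for granulocyte colony-stimulating factor, was called higher (1.88 ± 0.45 (adjusted p = 0.0193)), at 182 and 158 FPKM in PLA and 84.6, 17.3 and 82.8 in NC. Of the 9 neutrophil markers tested, 4 were lower and 1 higher in PLA against NC, beside 4.01% and 8.32% of all genes. Their median log2 fold change was -2.33, beside -0.109 over all genes. In GelMA against NC, 4 were lower and 0 higher, beside 3.21% and 5.03% of all genes. The 5 calls in PLA remained without NC replicate 2 (Csf3r 1.48, adjusted p = 0.000526). In that fit 6 were lower and 1 higher in all, beside 7.58% and 11.4% of all genes. The part that neutrophil number or stage had in the Mmp8 levels was not tested.

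**Figure D2:**
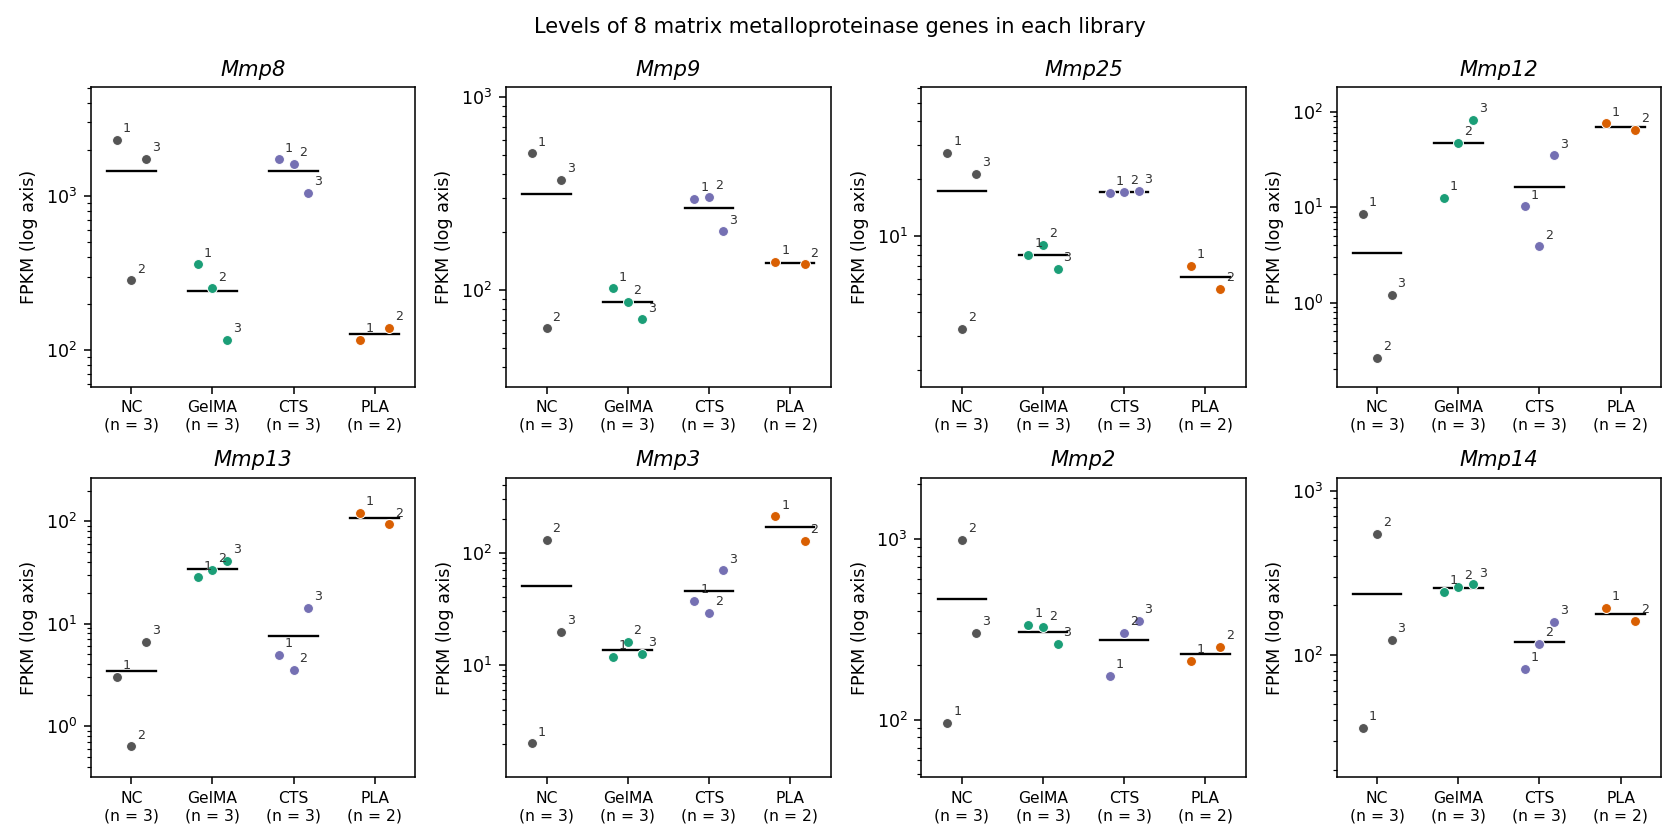
FPKM (log axis) of 8 Mmp genes in each library, with groups along the horizontal axis, each point a library with its replicate number, and a bar at the group mean. Mmp8 is high in CTS and in NC replicates 1 and 3, Mmp13 is highest in PLA at 121 and 93.2 FPKM, and NC replicate 2 is the highest library for Mmp2 and Mmp14.

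Macrophage elastase Mmp12 was higher in PLA than in NC. Its level was 8.48, 0.264 and 1.21 FPKM in NC, 12.6, 47.5 and 82.7 in GelMA, 10.3, 3.9 and 35.0 in CTS and 75.9 and 64.9 in PLA. Both PLA libraries lay above every NC and CTS library, and GelMA overlapped with both CTS and PLA. The log2 fold change was 4.83 ± 1.28 (adjusted p = 0.0297) in PLA against NC, a 28.5-fold difference, and the call was lost without NC replicate 3 (adjusted p = 0.0895), GelMA replicate 2 (0.0522) or PLA replicate 1 or 2 (0.1 and 0.0903). It was also lost without the filter on low counts (0.0516) and in the 2-group fit (0.127). GelMA against NC gave 3.74 ± 1.18 (adjusted p = 0.0707), which passed without NC replicate 1 (5.85, adjusted p = 0.0164) and by DESeq2 (0.0118), and CTS against NC gave 2.26 ± 1.12 (adjusted p = 0.456). Mmp19, which is made by macrophages among other cells, stood at 6.14, 38.8 and 15.6 FPKM in NC, 18.5, 21.8 and 17.8 in GelMA, 11.6, 14.2 and 18.7 in CTS and 24.2 and 15.8 in PLA and was not called. It was called higher in PLA than in NC without NC replicate 2 (1.35, adjusted p = 0.0323). Mmp27 was at 1.22, 99.5 and 11.4 FPKM in NC, 1.76, 1.67 and 2.5 in GelMA, 12, 16.9 and 28.0 in CTS and 0 and 7.91 in PLA and was not called either. NC replicate 2 held by far the most Mmp27, and without NC replicate 1 the fall in GelMA passed (-5.25, adjusted p = 0.0389), as it did by DESeq2 (0.0351). The 2-group fit called Mmp27 higher in CTS than in GelMA (0.00274). On average Mmp12 was highest in PLA and the macrophage marker sum was highest in GelMA. However, Mmp12 in PLA against GelMA gave only 1.09 ± 1.15 (adjusted p = 0.605), so the order of these 2 groups for Mmp12 is not established. The 10 markers summed to 84.0 to 103 FPKM in NC, 555 to 674 in GelMA, 168 to 302 in CTS and 206 to 259 in PLA, with Marco under 1 FPKM throughout and Cd163 under 1 FPKM outside GelMA. Of 9 markers tested, 8 had a log2 fold change above 0 in PLA against NC and 4 were called higher, and all 9 were above 0 in GelMA against NC with 8 called higher, beside 8.32% and 5.03% of all genes. Their part in the Mmp12 levels was not tested.

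Mmp13, the collagenase of osteoblasts, hypertrophic chondrocytes and activated fibroblasts, was called in 3 comparisons. It stood at 3.0, 0.628 and 6.6 FPKM in NC, 28.3, 33.7 and 41.0 in GelMA, 4.93, 3.5 and 14.3 in CTS and 121 and 93.2 in PLA. PLA was above every other library, GelMA was above every NC and CTS library, and NC and CTS overlapped. The level was 42.5-fold higher in PLA than in NC (log2 fold change 5.41 ± 0.80 (adjusted p = 0.0016)), 19.7-fold higher than in CTS (4.30 ± 0.76 (adjusted p = 0.00531)), and 9.39-fold higher in GelMA than in NC (3.23 ± 0.70 (adjusted p = 0.0182)). The first and second of these calls remained in all 17 alternatives, those that left out 1 library included. The GelMA call was lost without GelMA replicate 2 or 3 (adjusted p = 0.0573 and 0.0661) and in the 2-group fit (0.0614). PLA against GelMA gave 2.18 ± 0.71 (adjusted p = 0.0863) and CTS against GelMA -2.12 ± 0.67 (adjusted p = 0.134), and both passed without NC replicate 2 (adjusted p = 0.0229 and 0.0294), by DESeq2 (0.0146 and 0.0133) and in the 2-group fit (4.22e-05 and 0.0291). None of the 10 mesenchymal markers was called in any of the 6 comparisons by edgeR with all libraries (3 had an unadjusted p under 0.05, in GelMA against NC). Without NC replicate 2, Col6a1 and Postn were called higher in PLA and Postn in GelMA against NC, beside 11.4% and 7.26% of all genes. In that fit Postn was also called higher in PLA than in CTS, beside 8.88% of all genes. The 7 osteoblast markers summed to 17.1 to 113 FPKM, with Alpl at 9.62 to 73.9, Ibsp at 1.97 to 34.3, Bglap at 0.409 to 20.5 and Runx2 at 1.98 to 7.39, and Sp7, Dmp1 and Phex under 1 FPKM in every library. Of the 7, only Runx2 was called, higher in GelMA than in NC and lower in CTS than in GelMA. Runx2 in PLA gave 0.80 ± 0.18 (adjusted p = 0.0134) against NC and 0.79 ± 0.18 (adjusted p = 0.0163) against CTS, both under the fold threshold. The part of these cells in the Mmp13 levels was not tested.

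Stromelysin 1, Mmp3, which activates other metalloproteinase precursors, was high in PLA but also in NC replicate 2. Its level was 2.02, 129.96 and 19.7 FPKM in NC, 11.8, 16.2 and 12.6 in GelMA, 37.2, 29.0 and 69.5 in CTS and 209.5 and 128 in PLA. PLA lay above GelMA and CTS in every library, and NC replicate 2 lay between the PLA libraries. The log2 fold change of PLA was 1.84 ± 1.15 (adjusted p = 0.317) against NC, 4.17 ± 1.23 (adjusted p = 0.0623) against GelMA and 2.37 ± 1.16 (adjusted p = 0.211) against CTS, and none passed. PLA passed against GelMA by DESeq2 (0.00797), with scaling by library size alone (0.038) and in the 2-group fit (3.53e-05), which also called it against CTS (0.00549) and called CTS higher than GelMA (0.0123). Without NC replicate 2 all 3 passed, at 4.44 (adjusted p = 0.00707), 4.17 (0.00532) and 2.37 (0.0395). Without NC replicate 1, PLA passed against GelMA (0.00843) and CTS (0.0443), and Mmp3 was called lower in GelMA than in NC (-2.90, adjusted p = 0.0284). Stromelysin 2, Mmp10, was sparse, at 0, 0 and 1.43 FPKM in NC, 0.822, 0.0988 and 0.134 in GelMA, 0.0746, 0 and 0.206 in CTS and 1.45 and 0.232 in PLA, and was not called. Mmp3 and Mmp10 are close relatives, and how reads matching several genes were counted is not given in the sources used here.

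Mmp2, the gelatinase of stromal cells, and Mmp14, the membrane-bound protease that activates it, were the most abundant mesenchymal members and were not called in the fit of all 4 groups. Mmp2 stood at 96.2, 988 and 303 FPKM in NC, 334, 324 and 263 in GelMA, 175, 303 and 351 in CTS and 211 and 253 in PLA. Mmp14 stood at 35.9, 544 and 124 FPKM in NC, 242, 258 and 269 in GelMA, 82.4, 116 and 159 in CTS and 194 and 160.3 in PLA. NC alone spanned the levels of every other group, from NC replicate 1 at the bottom to NC replicate 2 at the top. The log2 fold change of Mmp14 in PLA against NC was -0.27 ± 0.88 (adjusted p = 0.877) with all libraries and 1.63 (adjusted p = 0.0388) without NC replicate 2. In GelMA against NC it was -0.27 ± 0.78 (adjusted p = 0.856) and 1.62 (0.0372), so its direction turned in both. The 2-group fit called Mmp14 higher in PLA than in CTS (1.01, adjusted p = 0.0287) and lower in CTS than in GelMA (-1.04, 0.0184). Mmp2 in PLA differed from NC by -0.83 ± 0.80 (adjusted p = 0.532) with all libraries and by 0.69 (adjusted p = 0.321) without NC replicate 2, from GelMA by 0.14 ± 0.78 (adjusted p = 0.940) and from CTS by 0.23 ± 0.78 (adjusted p = 0.885).

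Set against Mmp2 in the same library, the collagenase and the stromelysin of PLA stood out. The Mmp13 to Mmp2 ratio of FPKM was 0.0313, 0.000636 and 0.0218 in NC, 0.0847, 0.104 and 0.156 in GelMA, 0.0282, 0.0116 and 0.0406 in CTS and 0.572 and 0.368 in PLA. The Mmp3 to Mmp2 ratio was 0.021, 0.132 and 0.0649 in NC, 0.0354, 0.0498 and 0.0481 in GelMA, 0.213, 0.0958 and 0.198 in CTS and 0.991 and 0.505 in PLA. For Mmp14 the ratio to Mmp2 was 0.374, 0.551 and 0.408 in NC, 0.727, 0.797 and 1.02 in GelMA, 0.471, 0.383 and 0.454 in CTS and 0.918 and 0.633 in PLA. PLA held the highest values of the first and second ratio without overlap, and NC replicate 2, despite its high Mmp3 level, had an Mmp3 to Mmp2 ratio within the range of the CTS libraries. In the third ratio GelMA and PLA lay above every NC and CTS library. The ratios to Mmp2 were chosen after the values were seen and carry no test.

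**Figure D3:**
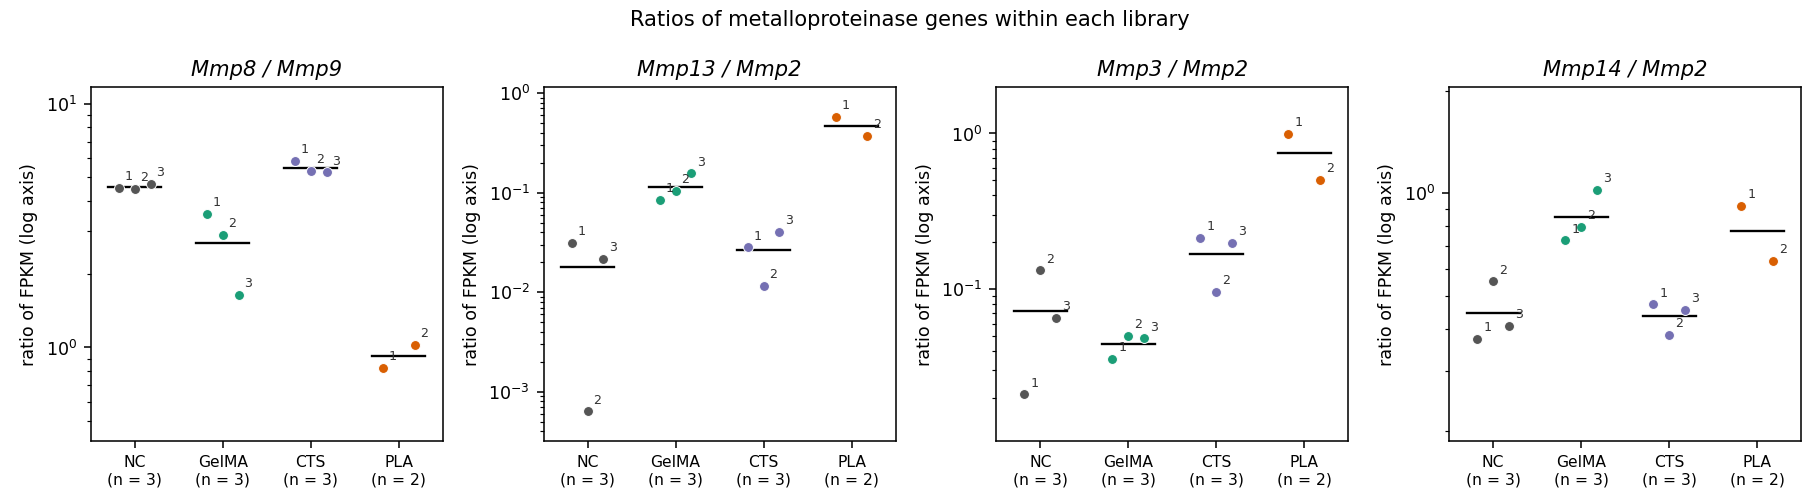
Ratio of the FPKM of pairs of Mmp genes within each library (log axis), by group, each point a library with its replicate number and a bar at the group mean. The Mmp8 to Mmp9 ratio of the PLA libraries, 0.825 and 1.03, lies below that of every other library, and their Mmp13 to Mmp2 and Mmp3 to Mmp2 ratios lie above.

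The remaining mesenchymal members were low. Mmp16, a membrane-type protease, stood at 1.05, 0.973 and 1.01 FPKM in NC, 0.556, 0.459 and 0.457 in GelMA, 0.252, 0.466 and 0.639 in CTS and 0.463 and 0.447 in PLA. It was called lower in GelMA than in NC (-1.26 ± 0.32 (adjusted p = 0.0331)), and the call was lost without NC replicate 3, any GelMA replicate, or PLA replicate 1 or 2 (adjusted p from 0.0522 to 0.112), and with scaling by library size alone (0.0564), under which Mmp16 was called lower in PLA than in NC (0.0491). CTS was also lower than NC in every library, with -1.32 ± 0.32 (adjusted p = 0.136), and was called by DESeq2 (0.00175). Mmp11, stromelysin 3, was at 0.276, 1.98 and 0.924 FPKM in NC, 2.63, 3.32 and 2.26 in GelMA, 1.25, 2.35 and 1.77 in CTS and 0.86 and 1.6 in PLA and was not called, although it passed as higher in GelMA without NC replicate 2 (2.12, adjusted p = 0.0177). Mmp23 ranged from 4.81 to 25.3 FPKM, with both ends in NC, and was not called. Of the 8 mesenchymal Mmp genes, 1 was higher and 0 lower in PLA against NC (8.32% and 4.01% of all genes), with a median log2 fold change of 0.0751 beside -0.109 over all genes.

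Other Mmp genes were near the limit of detection and none was called in a comparison by edgeR, with 1 of 5 at an unadjusted p under 0.05 in PLA against NC and in GelMA against NC. Over all libraries, the matrilysin Mmp7 ran from 0 to 0.99 FPKM, and the membrane-type genes Mmp15, Mmp17 and Mmp24 from 0 to 0.432, 0.0957 to 0.626 and 0.0226 to 0.209. Mmp28, epilysin, was at 1.58, 0.829 and 3.8 FPKM in NC, 0.544, 0.686 and 0.435 in GelMA, 1.5, 1.74 and 0.469 in CTS and 0.594 and 0.441 in PLA. GelMA against NC gave -2.02 ± 0.62 (adjusted p = 0.0662), which passed as lower without NC replicate 2 (adjusted p = 0.0212) or CTS replicate 3 (0.0456) and by DESeq2 (0.00716). Mmp24os, a gene on the strand opposite Mmp24, ran from 3.05 to 9.07 FPKM and was not called. Whether the counting used strand is not given in the sources used here, so reads of Mmp24 and Mmp24os may not be told apart.

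Among the 7 ADAMTS genes that cleave proteoglycans, 0 were called in PLA against NC by edgeR (1 at an unadjusted p under 0.05), 1 was higher in PLA than in CTS and 1 lower in GelMA than in NC, in both cases Adamts9. Adamts1, the most abundant, stood at 41.9, 85.7 and 67.6 FPKM in NC, 43.4, 44.8 and 44.4 in GelMA, 26.4, 33.2 and 59.2 in CTS and 62.4 and 54.8 in PLA. It was not called, and passed as higher in PLA than in CTS without NC replicate 2 (1.04, adjusted p = 0.0339) or CTS replicate 3 (1.40, 0.0471) and by DESeq2 (0.0451). Adamts9 was at 2.14, 2.88 and 4.14 FPKM in NC, 1.74, 2.21 and 1.27 in GelMA, 1.57, 1.25 and 1.8 in CTS and 2.71 and 2.27 in PLA. PLA lay above every CTS and GelMA library, and NC overlapped with both PLA and GelMA. The log2 fold change was 1.17 ± 0.31 (adjusted p = 0.0306) in PLA against CTS and -1.03 ± 0.28 (adjusted p = 0.0437) in GelMA against NC. The former was lost without GelMA replicate 1, any CTS replicate or PLA replicate 1 or 2 (adjusted p from 0.0509 to 0.189) and with scaling by library size alone (0.128). The latter was lost without NC replicate 2 or 3, any GelMA replicate, CTS replicate 1 or PLA replicate 1 or 2, where its log2 fold change ran from -1.30 to -0.90, and with scaling by library size alone (0.0845) or in the 2-group fit (0.131). PLA against GelMA gave 1.05 ± 0.31 (adjusted p = 0.0584) and passed without NC replicate 1 (0.0229) or NC replicate 2 (0.025), with RLE factors (0.0445), by DESeq2 (0.00864) and in the 2-group fit (0.00545). CTS against NC passed without NC replicate 1 (-1.38, 0.0467) and by DESeq2 (0.00411).

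The procollagen proteases showed no call in any comparison by edgeR, with 1 of 3 at an unadjusted p under 0.05 in PLA against CTS and in CTS against GelMA. Adamts2, the main procollagen N-proteinase and the most abundant of them, stood at 8.8, 83.0 and 23.9 FPKM in NC, 20.6, 22.5 and 21.9 in GelMA, 13.1, 19.0 and 28.6 in CTS and 16.4 and 19.4 in PLA. NC replicate 2 was the highest library and NC replicate 1 the lowest. Among the other ADAMTS genes, Adamts6 was at 1.36, 0.853 and 0.973 FPKM in NC, 1.35, 1.17 and 1.29 in GelMA, 0.856, 0.768 and 1.35 in CTS and 2.34 and 1.3 in PLA. PLA replicate 1 was the highest library, and PLA replicate 2 overlapped with NC, GelMA and CTS. Adamts6 was called higher in PLA than in NC (1.11 ± 0.33 (adjusted p = 0.0453)) and CTS (1.35 ± 0.33 (adjusted p = 0.0231)). Without PLA replicate 1 neither was called (adjusted p = 0.397 and 0.249). The call against NC was also lost without NC replicate 3, any GelMA replicate or CTS replicate 1 or 2 (adjusted p up to 0.137), and that against CTS without CTS replicate 1 or 2 (up to 0.0915), while PLA against GelMA passed without NC replicate 2 (0.0376), by DESeq2 (0.0147) and in the 2-group fit (0.00904). Scaled by library size alone, neither was called (0.135 and 0.0913), and the call against NC was lost without the filter (0.0728) and in the 2-group fit (0.178).

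Adamts7, a protease of cartilage oligomeric matrix protein, showed the same dependence on 1 PLA library. It stood at 0.546, 2.51 and 1.09 FPKM in NC, 2.58, 3.01 and 2.66 in GelMA, 1.17, 0.822 and 1.42 in CTS and 6.53 and 2.56 in PLA. PLA replicate 1 was far above the other libraries, and PLA replicate 2 was close to the GelMA libraries and NC replicate 2. It was called higher in PLA than in CTS (2.47 ± 0.63 (adjusted p = 0.0286)) and this was lost without PLA replicate 1 (1.65, adjusted p = 0.251), any CTS replicate (up to 0.105) or GelMA replicate 1 or 2 (0.05 and 0.0523). Without NC replicate 2, it passed against NC in PLA (2.94, adjusted p = 0.00109) and GelMA (1.68, 0.0175), and in PLA against GelMA (1.26, 0.0411). DESeq2 called it in PLA against NC (0.0181), and the 2-group fit in PLA against GelMA (0.0406) and as lower in CTS than in GelMA (0.0113). Adamts10, the most abundant of these genes, was at 7.49 to 21.7 FPKM and was not called.

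ADAMTS-like genes, which encode matrix proteins without a protease domain, were lower in GelMA than in NC in 2 of 5 (Adamtsl2 and Adamtsl3) and higher in 0, beside 3.21% and 5.03% of all genes. Adamtsl3 stood at 3.02, 1.71 and 5.32 FPKM in NC, 0.552, 0.915 and 0.574 in GelMA, 0.803, 1.5 and 2.09 in CTS and 0.253 and 0.569 in PLA. Every GelMA and PLA library lay below every NC library, and CTS overlapped with NC. It was lower in PLA (-2.63 ± 0.56 (adjusted p = 0.0118)) and in GelMA (-2.44 ± 0.47 (adjusted p = 0.0114)) than in NC. The former was lost without PLA replicate 1 (adjusted p = 0.109) and in the 2-group fit (0.0924), and the latter without GelMA replicate 3 (0.0575). Adamtsl2, a partner of latent TGF-beta binding protein, was at 0.847, 0.402 and 1.1 FPKM in NC, 0, 0.0959 and 0.059 in GelMA, 0.181, 0.142 and 0.536 in CTS and 0.0167 and 0.137 in PLA, and its fall in GelMA (-4.03 ± 1.14 (adjusted p = 0.049)) was lost in all leave-one-out fits except that without NC replicate 2, with adjusted p up to 0.148, and in the 2-group fit (0.0977). DESeq2 called Adamtsl2 lower in PLA than in NC (0.0304), and scaling by library size alone called Adamtsl3 lower in PLA than in CTS (0.0437). Adamtsl4, the most abundant, stood at 4.77, 28.8 and 11.4 FPKM in NC, 4.84, 6.08 and 6.69 in GelMA, 5.96, 10.2 and 11.7 in CTS and 3.57 and 6.86 in PLA, was not called, and passed as lower in GelMA without NC replicate 1 (-2.15, adjusted p = 0.0216) and by DESeq2 (0.0249). The 14 tested members named nowhere with values ran from 0 to 85.1 FPKM in a library, with adjusted p of at least 0.0595 in all 6 comparisons.

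The inhibitors did not move as a group. A2m rose in GelMA and PLA, Timp4 fell in both, Timp1 was higher in PLA than in CTS, and Timp2 and Timp3 were not called. A2m stood at 2.47, 0.732 and 2.31 FPKM in NC, 34.0, 52.3 and 34.1 in GelMA, 8.32, 1.03 and 9.03 in CTS and 25.3 and 22.7 in PLA. All GelMA and PLA libraries lay above all NC and CTS libraries. It was 17.2-fold higher in PLA than in NC (log2 fold change 4.10 ± 0.74 (adjusted p = 0.00501)) and 19.8-fold higher in GelMA than in NC (4.31 ± 0.72 (adjusted p = 0.00545)), and both calls remained in all 17 alternatives. PLA against CTS gave 2.44 ± 0.70 (adjusted p = 0.0434), which was lost without NC replicate 3, CTS replicate 1 or 3, any GelMA replicate or PLA replicate 1 or 2 (adjusted p from 0.0569 to 0.168), with scaling by library size alone (0.0684), without the filter (0.0743) and in the 2-group fit (0.0618). CTS against NC gave 1.66 ± 0.65 (adjusted p = 0.357) and passed without CTS replicate 2 (2.13, adjusted p = 0.0391). CTS against GelMA gave -2.65 ± 0.66 (adjusted p = 0.0707) and passed without NC replicate 2 (0.0301), by DESeq2 (0.00077) and in the 2-group fit (0.0412). PLA against GelMA gave -0.21 ± 0.70 (adjusted p = 0.892), although every PLA library lay below every GelMA library in FPKM.

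Timp1, an inducible inhibitor of most secreted metalloproteinases, stood at 103, 229 and 188 FPKM in NC, 102, 155 and 153 in GelMA, 64.5, 67.4 and 119 in CTS and 219 and 166 in PLA. Both PLA libraries lay above all CTS libraries, and NC overlapped with all 3 scaffold groups. PLA against CTS was 1.68 ± 0.42 (adjusted p = 0.0253), which was lost without CTS replicate 1 or 2 (adjusted p = 0.0985 and 0.0973) or PLA replicate 1 or 2 (0.162 and 0.0845). The 2-group fit called Timp1 higher in PLA than in GelMA (0.00787), and DESeq2 called it lower in CTS than in NC (0.0273). Timp4, the least abundant of the 4, was at 3.1, 8.45 and 6.38 FPKM in NC, 1.46, 1.4 and 0.78 in GelMA, 1.12, 1.08 and 2.17 in CTS and 0.47 and 0.81 in PLA. Every scaffold library lay below every NC library, and PLA replicate 1 was the lowest of all. Against NC, Timp4 was lower in PLA (-2.96 ± 0.64 (adjusted p = 0.0123)) and GelMA (-2.58 ± 0.53 (adjusted p = 0.0143)), and CTS gave -2.26 ± 0.52 (adjusted p = 0.126). The PLA call was lost without PLA replicate 1 or 2 (adjusted p = 0.116 and 0.0644), the GelMA call without GelMA replicate 2 or 3 (0.0536 and 0.0667), and the CTS value passed without NC replicate 1 (0.0467) and by DESeq2 (0.000876). The 2-group fit called neither (adjusted p = 0.109 in PLA and 0.0554 in GelMA).

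Timp2, which takes part in the activation of Mmp2 by Mmp14, was on average the most abundant inhibitor in each group, at 109, 848 and 281 FPKM in NC, 189.8, 202 and 199 in GelMA, 158, 221 and 282 in CTS and 189 and 218 in PLA. NC replicate 2 was the highest library and NC replicate 1 the lowest. It differed from NC by -0.85 ± 0.73 (adjusted p = 0.477) in PLA (0.53, adjusted p = 0.34 without NC replicate 2) and -1.43 ± 0.65 (adjusted p = 0.179) in GelMA, the latter passing without NC replicate 1 (-1.91, adjusted p = 0.028). Timp3, which is bound to the matrix and also inhibits ADAMTS proteases and Adam17, stood at 28.0, 72.0 and 67.9 FPKM in NC, 32.9, 48.0 and 37.9 in GelMA, 28.6, 29.4 and 60.1 in CTS and 40.6 and 26.6 in PLA, with log2 fold changes against NC of -0.46 ± 0.48 (adjusted p = 0.572) in PLA, -0.76 ± 0.43 (adjusted p = 0.282) in GelMA and -0.71 ± 0.43 (adjusted p = 0.540) in CTS. The groups overlapped for both genes.

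**Figure D4:**
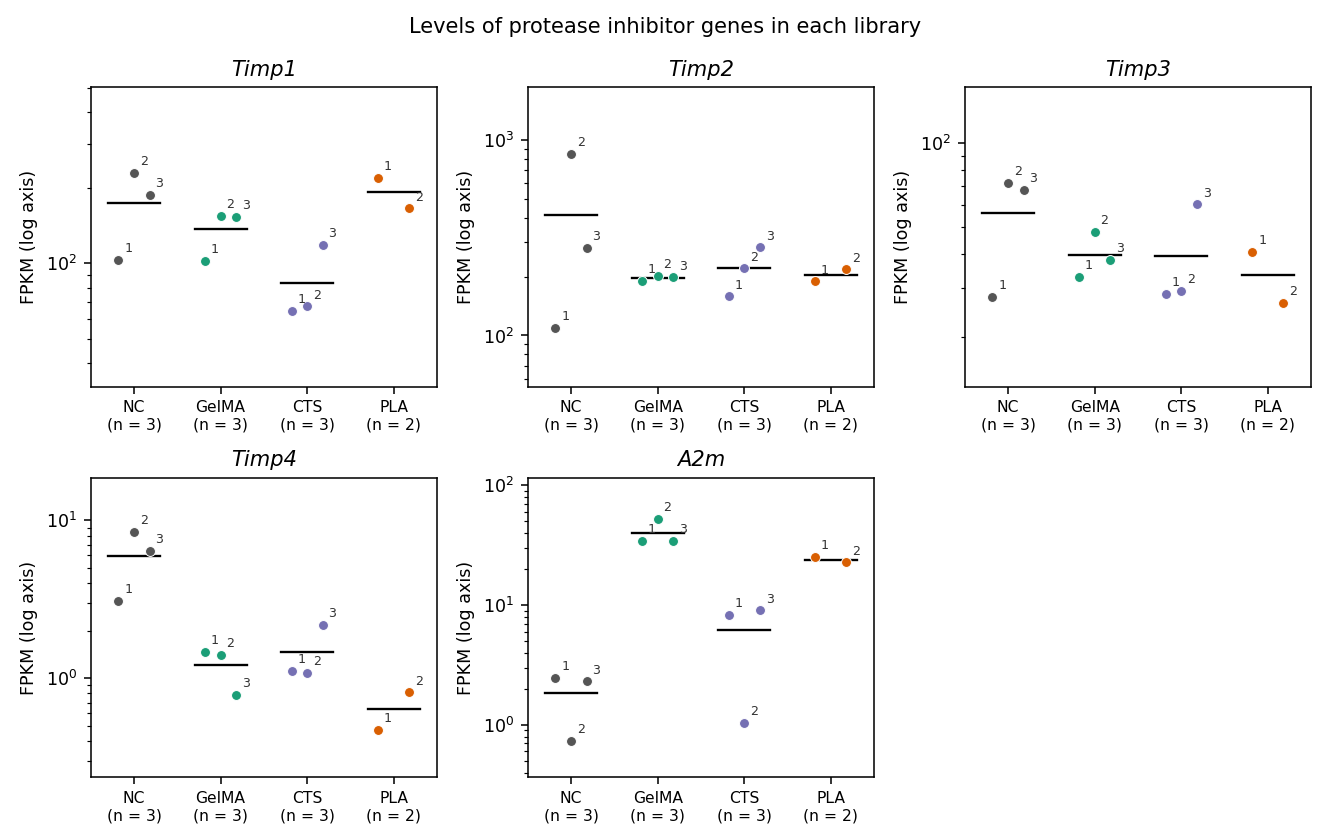
FPKM (log axis) of Timp1 to Timp4 and A2m in each library, by group, each point a library with its replicate number and a bar at the group mean. A2m is at 34.0 to 52.3 FPKM in GelMA and 22.7 to 25.3 in PLA, above all NC and CTS libraries, and all scaffold libraries lie below NC for Timp4.

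Proteases were then set against inhibitors within each library, on FPKM. The summed Mmp level over the summed Timp level was 12.3, 1.88 and 4.83 in NC, 3.47, 2.62 and 2.29 in GelMA, 9.43, 7.62 and 4.23 in CTS and 2.47 and 2.47 in PLA. PLA and GelMA lay below every CTS library, and NC ran across the full range, lowest in NC replicate 2 and highest in NC replicate 1. The means were 6.35 ± 5.39 in NC, 2.79 ± 0.606 in GelMA, 7.09 ± 2.64 in CTS (SD, n = 3) and 2.47 ± 0.00358 in PLA (SD, n = 2), given without a test. With Mmp8 left out, they were 2.05 ± 0.709, 2.12 ± 0.211, 2.38 ± 0.363 and 2.17 ± 0.061, and the groups overlapped, so the difference in the sum rested on Mmp8. On counts in place of FPKM, with Mmp8 kept, PLA lay below every CTS library. GelMA no longer did, with GelMA replicate 1 at 2.83 and CTS replicate 3 at 2.80.

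The make-up of the Mmp transcripts differed in the same way. The neutrophil genes Mmp8, Mmp9 and Mmp25 made up 94.6%, 16.0% and 81.0% in NC, 41.5%, 32.6% and 21.6% in GelMA, 85.5%, 79.5% and 64.8% in CTS and 23.7% and 27.6% in PLA of the summed Mmp FPKM. Mesenchymal Mmp genes made up 4.77%, 77.5% and 17.7% in NC, 55.4%, 60.5% and 66.7% in GelMA, 13.0%, 19.0% and 30.9% in CTS and 67.2% and 63.5% in PLA. The macrophage list (Mmp12, Mmp19 and Mmp27) made up 0.527%, 6.35% and 1.08% in NC, 2.91%, 6.66% and 11.5% in GelMA, 1.42%, 1.44% and 4.18% in CTS and 9.01% and 8.73% in PLA. In NC replicate 2 most of this share was Mmp27, and its Mmp12 level was the lowest of all libraries. Its macrophage markers summed to 84.0 FPKM, also the lowest. That order holds for FPKM, which carry no composition factor, and this library has a low one (0.804). What the share stands for in NC replicate 2 was not tested. Every CTS library drew most of its Mmp FPKM from the neutrophil genes, and every GelMA and PLA library from the mesenchymal genes. NC replicate 2 resembled GelMA and PLA in this respect, and NC replicates 1 and 3 resembled CTS.

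**Figure D5:**
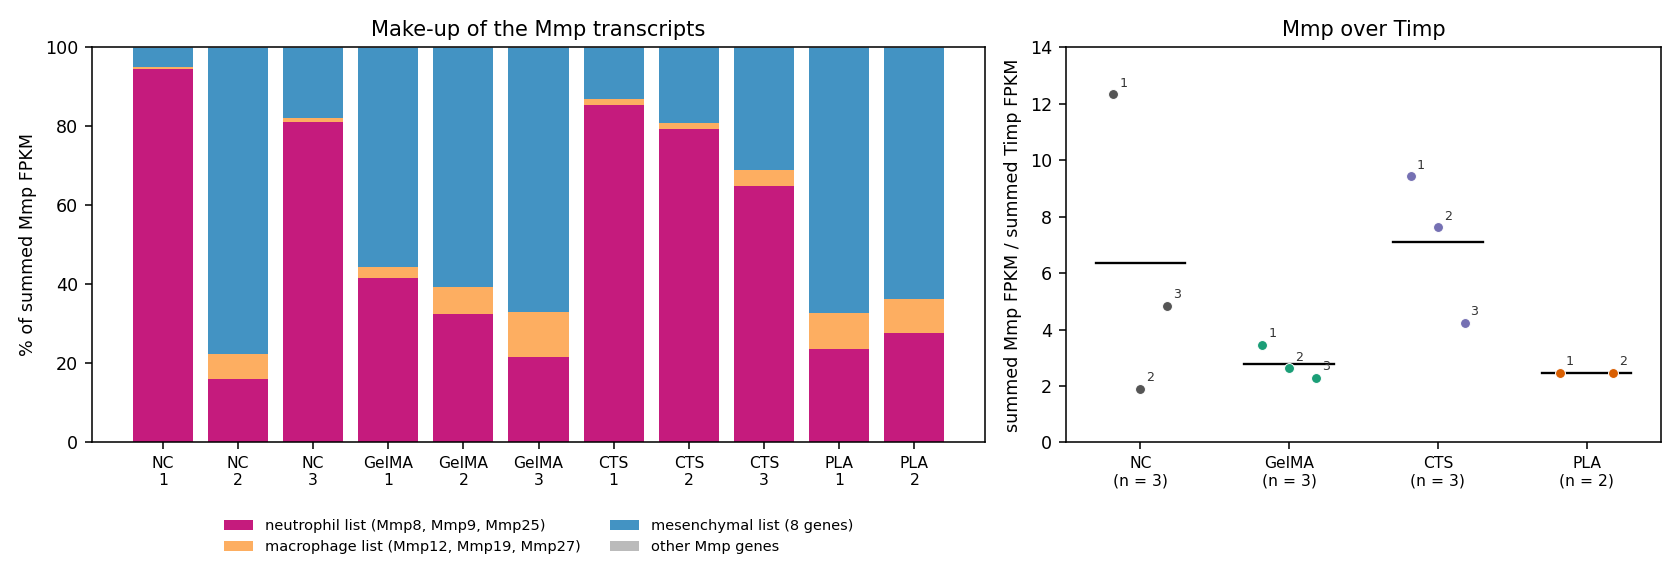
Left, share of the summed Mmp FPKM in each library taken by the neutrophil, macrophage and mesenchymal lists of Mmp genes and by other Mmp genes, stacked to 100%. Right, summed Mmp FPKM over summed Timp FPKM in each library by group, with a bar at the group mean; the PLA libraries are at 2.47 and 2.47 and the CTS libraries between 4.23 and 9.43.

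Genes that act on these proteases were examined by list. Of the 8 genes of the plasminogen system, a serine protease cascade that activates metalloproteinases, 1 was higher and 0 lower in PLA against NC. For this and the lists that follow, the shares of all genes called were 8.32% higher and 4.01% lower in PLA against NC, and 5.03% and 3.21% in GelMA against NC. With NC replicate 2 left out, 4 of the 7 then tested were higher in PLA, beside 11.4% of all genes. Plaur, the urokinase receptor, stood at 371, 111 and 299 FPKM in NC, 439, 526 and 568 in GelMA, 368, 341 and 341 in CTS and 878 and 856 in PLA. Both PLA libraries lay above all others, with log2 fold changes of 2.13 ± 0.32 (adjusted p = 0.00164) against NC, 1.30 ± 0.31 (adjusted p = 0.0312) against GelMA and 1.79 ± 0.31 (adjusted p = 0.00508) against CTS. Plau, urokinase itself, was at 69.4 to 446 FPKM in NC and 85.8 to 102 in PLA and gave -1.08 ± 0.69 (adjusted p = 0.332). All 3 Plaur calls remained without NC replicate 2 (against NC 1.83, adjusted p = 2.78e-05), and Plau gave 0.20, adjusted p = 0.736.

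Of 10 activators and surface regulators, 2 were higher and 2 lower in PLA against NC. Bsg, an inducer of metalloproteinases at the cell surface, was at 51.3, 99.7 and 81.9 FPKM in NC, 92.4, 113 and 113 in GelMA, 68.6, 61.4 and 94.7 in CTS and 195 and 214 in PLA and gave 1.67 ± 0.33 (adjusted p = 0.00831). Furin, a convertase that cuts metalloproteinase precursors, gave 1.11 ± 0.20 (adjusted p = 0.00448). Lower in PLA were the convertase Pcsk6 (-2.56 ± 0.67 (adjusted p = 0.0289)) and the proteoglycan Spock2 (-4.69 ± 0.75 (adjusted p = 0.00266)). In GelMA against NC, 4 of the 10 were lower (Pcsk6, Reck, Spock2 and Spock3) and 0 higher. Lcn2, a neutrophil protein that binds Mmp9, was at 3164, 315 and 2099 FPKM in NC, 776, 776 and 401 in GelMA, 1228, 1954 and 921 in CTS and 2143 and 1709 in PLA, and was not called in PLA against NC (0.48 ± 0.65 (adjusted p = 0.675)). The PLA calls of Bsg, Furin, Pcsk6 and Spock2 and the GelMA calls remained without NC replicate 2, where Lcn2 was called lower in GelMA than in NC (-2.10, adjusted p = 0.00436) and higher in PLA than in GelMA (2.10, adjusted p = 0.00419), and Furin higher in GelMA than in NC (1.09, adjusted p = 0.000678).

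Of 9 ADAM sheddases tested, Adam17 alone was called in PLA against NC, at 90.4 and 94.1 FPKM in PLA and 23.5 to 33.7 in NC (1.99 ± 0.15 (adjusted p = 5.17e-05)). It was also higher than in GelMA (1.55 ± 0.15 (adjusted p = 0.000488)) and CTS (1.89 ± 0.15 (adjusted p = 7.87e-05)). Of 9 other matrix proteases, 2 were lower in PLA against NC, the neutrophil granule proteases Elane (-3.07 ± 0.71 (adjusted p = 0.0169)) and Ctsg (-3.29 ± 0.73 (adjusted p = 0.014)). Of 4 serine protease inhibitors, 2 were higher. Slpi, which inhibits both granule proteases, stood at 366, 61.3 and 285 FPKM in NC, 577, 749.7 and 946 in GelMA, 521, 409.6 and 517 in CTS and 3183 and 3098 in PLA. The PLA libraries were above all others, with 4.14 ± 0.51 (adjusted p = 0.000581) against NC, 2.59 ± 0.49 (adjusted p = 0.011) against GelMA and 3.18 ± 0.49 (adjusted p = 0.00274) against CTS. Serpina3n was the other (3.66 ± 0.80 (adjusted p = 0.0136)), at 64.0 and 23.3 FPKM in PLA and 2.44 to 5.3 in NC. The calls of Adam17, Elane, Ctsg, Slpi and Serpina3n remained without NC replicate 2, where 2 of the 9 sheddases were higher in PLA against NC, and 2 of the other proteases were higher and 3 lower.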

How the data were processed

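Cd45- cells of 11 rat tissue samples were profiled by bulk RNA-seq. According to the submitters' processing notes, the authors used fastp, HISAT2, HTSeq and DESeq with the build mRatBN7.2, versions not given. The deposited table gives counts per gene, which are raw and not normalized. The deposited FPKM values equal count over gene length and library total, with no composition factor.

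Counts were tested in R 4.3.3 with edgeR 4.0.16 (filterByExpr with a minimum count of 10, TMM, robust quasi-likelihood F test, group as the only term, all 11 libraries in 1 fit), with Benjamini-Hochberg adjustment over the 18049 genes tested. The SE is the log2 fold change divided by the square root of F. As alternatives, the scaling was by RLE factors or by library size alone, the filter was dropped, DESeq2 1.42.0 or edgeR on the 2 groups compared took the place of the test, the replicate number was added as a block, and each of 11 libraries was left out. For pathway genes and markers, the fit without NC replicate 2 alone was added after seeing the data. Scripts were tested on simulated data. No library was counted as a duplicate.

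Named with values were all Timp genes, A2m, each Mmp that passed the filter, each Adamts or Adamtsl gene called in a comparison and the most abundant of each Adamts list. From the pathway lists came up to 2 genes per direction called in PLA against NC, plus Lcn2, Plau and Plaur. A further gene of that rule is not reported here. Members and lists were chosen with earlier results of these data known. Promoter windows came from RefSeq (GRCr8), where all 53 symbols matched and 40 had a window. Figures used Python 3.11.15 and matplotlib 3.10.9.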

Additional observations from a re-analysis of the deposited data

How the results depend on the processing

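Of 23 calls among the members named with values, 4 remained in all alternatives: A2m in PLA and in GelMA against NC, and Mmp13 in PLA against NC and CTS. With 2 or 3 libraries a group and NC replicate 2 apart, most other calls rested on single libraries, and a missing call does not show equal levels. Over the fits that left out 1 library, members higher ran from 2 to 10 and lower from 0 to 5 in PLA against NC, higher from 0 to 6 in PLA against GelMA, higher from 1 to 9 and lower from 0 to 1 in PLA against CTS, higher from 1 to 8 and lower from 0 to 11 in GelMA against NC, higher from 0 to 1 and lower from 0 to 2 in CTS against NC, and higher from 0 to 3 and lower from 0 to 4 in CTS against GelMA. Without NC replicate 2, Mmp14 turned from lower to higher in PLA (1.63, adjusted p = 0.0388) and GelMA (1.62, adjusted p = 0.0372) against NC, results that were called in no other fit. Over all fits that left out 1 library, they ran from -0.79 to 1.63 and from -0.79 to 1.62.

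Without the filter on low counts, 2 members were higher in PLA against NC. RLE factors gave 1 higher in PLA against GelMA. Library size alone gave 1 higher in PLA against GelMA, 3 higher and 2 lower in PLA against CTS, and 4 lower in GelMA against NC. Under this scaling the median log2 fold change over all genes was -0.43 (PLA against NC), -0.58 (PLA against GelMA), -0.51 (PLA against CTS), 0.16 (GelMA against NC) and 0.12 (CTS against NC). The main fit gave -0.109, -0.0423, -0.0311, -0.0467 and -0.0227 in that order. DESeq2 gave 5 lower in PLA against NC, 4 higher in PLA against GelMA, 4 higher in GelMA against NC, 4 lower in CTS against NC, and 2 higher and 2 lower in CTS against GelMA. It kept all 23 main calls. It also called Adamts7 higher in PLA against NC, Adamts1 higher in PLA against CTS, and Adamtsl4, Mmp27 and Mmp28 lower in GelMA against NC. A count not listed for an alternative need not equal that of the main fit. EdgeR on the 2 groups compared gave 2 higher and 0 lower in PLA against NC, 8 higher and 1 lower in PLA against GelMA, 2 lower in PLA against CTS, 1 higher and 2 lower in GelMA against NC, and 5 higher and 6 lower in CTS against GelMA. Shares of all genes called are not given here for these alternatives, and the causes were not tested. The mean summed Mmp over Timp ratio became 2.12 in GelMA, 2.38 in CTS and 2.17 in PLA without Mmp8. On counts in place of FPKM it was 2.44 in GelMA, 4.33 in CTS and 2.39 in PLA, and GelMA and CTS overlapped.

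Replicate numbers did not pair the libraries: over 15 pairs of libraries with the same number, deviations from the group means correlated at -0.108 to 0.118, and 1 pair exceeded 0.1. With the replicate number as a block, 1 member was higher in PLA against GelMA (Mmp13), 3 were higher in PLA against CTS and 3 were lower in GelMA against NC.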

Other observations

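Markers of other cells were read beside the proteases. Acp5, the tartrate-resistant phosphatase of osteoclasts that macrophages also make, was at 6.95, 6.41 and 5.39 FPKM in NC, 17.7, 22.4 and 31.1 in GelMA, 9.62, 9.89 and 19.9 in CTS and 14.4 and 17.1 in PLA, higher in PLA (1.64 ± 0.36 (adjusted p = 0.0136)) and GelMA (1.69 ± 0.33 (adjusted p = 0.0124)) than in NC. Atp6v0d2, a proton pump subunit of osteoclasts, was at 0.238, 0.0278 and 0.0319 FPKM in NC, 1.16, 0.933 and 0.801 in GelMA, 2.06, 1.18 and 6.29 in CTS and 2.48 and 2.62 in PLA. It was likewise higher in PLA (5.04 ± 0.91 (adjusted p = 0.005)) and GelMA (3.10 ± 0.84 (adjusted p = 0.0433)) than in NC. CTS against NC gave 4.88 ± 0.87 (adjusted p = 0.0612), with every CTS library above every NC library. Ctsk, the collagen-degrading cathepsin of osteoclasts and fibroblasts, was not called and was highest in NC replicate 2, at 55.3, 355 and 128 FPKM in NC, 102, 109 and 103 in GelMA, 83.0, 114 and 179 in CTS and 92.6 and 114 in PLA. Ocstamp, which takes part in osteoclast fusion, was under 1 FPKM throughout, at 0.471, 0.197 and 0.446 in CTS and 0.0253 and 0.0346 in PLA, and was lower in PLA than in CTS (-3.14 ± 0.76 (adjusted p = 0.023)). Calcr was under 1 FPKM throughout. Of the 6 osteoclast markers tested, 2 were higher in PLA and 2 in GelMA against NC, beside 8.32% and 5.03% of all genes. In each of these comparisons 3 of the 6 were above 0 and 3 below. In PLA against CTS, 1 was lower, beside 3.53% of all genes. Of 5 endothelial markers, Vwf was higher in PLA than in NC (1.47 ± 0.35 (adjusted p = 0.0186)) and GelMA (1.58 ± 0.35 (adjusted p = 0.0219)), and Cdh5 was higher in PLA than in GelMA (1.61 ± 0.41 (adjusted p = 0.0383)). Thus 1 was higher against NC and 2 against GelMA, beside 8.32% and 4.61% of all genes. In each comparison 4 of the 5 were above 0 and 1 below (Tek at -0.60 against NC, Kdr at -0.31 against GelMA). Runx2, the transcription factor of early osteoblasts, was higher in GelMA than in NC (1.03 ± 0.16 (adjusted p = 0.00393)) and lower in CTS than in GelMA (-1.02 ± 0.16 (adjusted p = 0.0173)). Its level was 3.2, 1.98 and 3.72 FPKM in NC, 7.39, 6.28 and 6.95 in GelMA, 3.42, 2.77 and 3.58 in CTS and 4.08 and 3.99 in PLA. In PLA against NC, Runx2 gave 0.80 ± 0.18 (adjusted p = 0.0134), under the fold threshold. PLA against GelMA gave -0.23 ± 0.18 (adjusted p = 0.467). When NC replicate 2 was left out, Runx2 in GelMA against NC (0.91, adjusted p = 0.00125) fell under the fold threshold and Atp6v0d2 in GelMA against NC was lost (2.73, adjusted p = 0.0516), and the other calls named here remained.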
